A study of Mus musculus with 6 samples.

Results

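The genes described here are the colony-stimulating factor ligands, their receptor chains and the STAT5 pair, as expressed by cells washed from the mouse lung. They were chosen by symbol, not by level: 9 genes out of the 48795 gene rows of the count table, namely Csf1, Csf2, Csf1r, Csf2ra, Csf2rb, Csf2rb2, Csf3r, Stat5a and Stat5b. Each symbol matched 1 gene ID. The cells came from bronchoalveolar lavage (BAL), a saline wash of the airspaces, of C57BL/6 mice, wild-type and 8 to 12 weeks old. Into the trachea the study instilled cadmium chloride at 100 ng/kg, or saline as the control, in male and female animals, and the lavage followed on day 7. Bulk RNA from the lavage cells was sequenced in 6 libraries, titled CD170, CD171, CD174, CD176, CD177 and CD178 (these are titles, not surface antigens). The labels used here state neither the exposure nor the sex behind any library, and no groups were formed. Levels are therefore given library by library, no exposure was compared with another, and no difference between libraries was tested.

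As background, macrophage colony-stimulating factor (M-CSF, gene Csf1) and interleukin 34 signal through the receptor tyrosine kinase encoded by Csf1r. Granulocyte-macrophage colony-stimulating factor (GM-CSF, gene Csf2) binds a receptor of an alpha chain, Csf2ra, and the common beta chain, Csf2rb, which acts through JAK2 to activate STAT5A and STAT5B. In the lung, GM-CSF made largely by alveolar epithelial cells is required for alveolar macrophages to mature and to clear surfactant. Mice also carry Csf2rb2, a beta chain that works with the interleukin 3 receptor alone, and Csf3r encodes the granulocyte colony-stimulating factor (G-CSF) receptor, best known on neutrophils.

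The libraries held between 7732244 counts on genes in CD174 and 23599369 in CD178. Levels are read counts scaled to library size (CPM), and brackets give exact 95% Poisson intervals. With no groups, counting error is the only error that can be given, and the intervals cover nothing else. Alveolar macrophages, which live in the airspaces, dominated the marker genes: their 10 markers summed to between 27939 CPM in CD171 and 34444 CPM in CD177, with Chil3, Lpl and Ear2 the highest. CD174 and CD171 stood apart. Reads that the authors' counting assigned to no feature took 25.0% of all counts in CD174 and 16.6% in CD171, against 6.49 to 7.29% in the others. The counts do not tell whether such reads lay between genes or within introns. Of the genes predicted to have at least 20 counts from the median of the other libraries, 132 of 10052 were at 0 in CD174 and 50 of 10876 in CD171, against 1 to 12 elsewhere. A set of 15 epithelial markers, led by Krt19, Sftpc and Scgb1a1, summed to 5300 CPM in CD174 and to 1201 to 2017 CPM in the others. Krt19 gave most of the sum in the others, at 921 to 1697 CPM, and was at 2066 CPM in CD174. The keratins Krt8 and Krt18 of the same set reached only 7.15 and 5.21 CPM. Which cells carried Krt19 was not tested, so the sum is no measure of epithelial content. Sftpc was at 1602 CPM in CD174 and 41.4 to 254 CPM in the others. Scgb1a1 was at 963 CPM in CD174 and 38.9 to 121 CPM in the others. Results below are therefore also given without these 2 libraries. In bulk RNA, fewer cells of a type and less RNA per cell cannot be told apart.

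The receptor beta chains and the STAT5 genes each form a pair of close relatives, which limits how reads can be assigned to one or the other. The beta chain genes lie next to each other on mouse chromosome 15 in opposite directions (GRCm38, GENCODE M21): Csf2rb at 78325752 to 78353847 on the plus strand and Csf2rb2 at 78282507 to 78305721 on the minus strand. Their coding sequences were 95.2% identical over the aligned bases, with 125 differing bases. The stretches of coding sequence below show where they differ most and where they do not differ at all. Capitals mark bases that differ from the partner. The least alike window of 150 bases held 25 differences (Csf2rb coding bases 300 to 449, chr15:78338889-78340492 on the plus strand; Csf2rb2 coding bases 303 to 452, chr15:78292817-78294442 on the minus strand; each across 2 coding exons), while the identical one lay within 1 coding exon of each gene at coding bases 2083 to 2232 (chr15:78348577-78348726 and chr15:78284722-78284871).
Csf2rb, least alike: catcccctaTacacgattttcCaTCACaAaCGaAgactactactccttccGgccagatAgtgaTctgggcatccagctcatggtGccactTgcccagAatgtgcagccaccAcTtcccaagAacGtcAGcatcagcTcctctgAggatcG
Csf2rb2, least alike: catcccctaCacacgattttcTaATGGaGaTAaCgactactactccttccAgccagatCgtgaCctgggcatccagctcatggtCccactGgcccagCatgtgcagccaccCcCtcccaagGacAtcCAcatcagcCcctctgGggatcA
Csf2rb and Csf2rb2, identical: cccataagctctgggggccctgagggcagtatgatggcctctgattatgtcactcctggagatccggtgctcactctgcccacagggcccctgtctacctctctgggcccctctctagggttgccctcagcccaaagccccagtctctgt

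Stat5a (ENSMUSG00000004043.14) and Stat5b (ENSMUSG00000020919.11) are neighbours on chromosome 11, at 100859351 to 100885169 on the plus strand and 100780731 to 100850724 on the minus strand. Their coding sequences were 90.7% identical over the aligned bases, with 218 differing bases. The least alike window held 37 differences and lay near the start of the reading frame, at coding bases 15 to 164 in both genes (Stat5a chr11:100861352-100861756, Stat5b chr11:100804991-100808509, each across 2 coding exons). Coding bases 571 to 720 did not differ (chr11:100874023-100874377 and chr11:100798347-100798701).
Stat5a, least alike: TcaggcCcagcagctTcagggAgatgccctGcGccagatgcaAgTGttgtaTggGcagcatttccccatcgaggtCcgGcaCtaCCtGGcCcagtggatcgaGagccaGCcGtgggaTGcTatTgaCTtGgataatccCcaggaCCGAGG
Stat5b, least alike: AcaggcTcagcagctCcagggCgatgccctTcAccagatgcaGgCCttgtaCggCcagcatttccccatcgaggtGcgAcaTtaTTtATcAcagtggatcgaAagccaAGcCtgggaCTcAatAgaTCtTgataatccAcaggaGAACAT
Stat5a and Stat5b, identical: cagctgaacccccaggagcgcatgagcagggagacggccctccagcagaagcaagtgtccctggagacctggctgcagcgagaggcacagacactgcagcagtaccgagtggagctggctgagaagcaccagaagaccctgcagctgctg
The read length is not given in the sources used here. For reads of 50 bases, 26.2% of start positions in the coding sequence of Csf2rb also occurred in a transcript of Csf2rb2, and 26.1% of those in Stat5a also occurred in Stat5b. For reads of 100 bases the shares were 11.0% and 11.6%. In the authors' counts, alignments that were not unique stood in a row of their own, at 6.80 to 11.0% of all counts, so each of the 4 genes may be counted low.

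**Figure D1:**
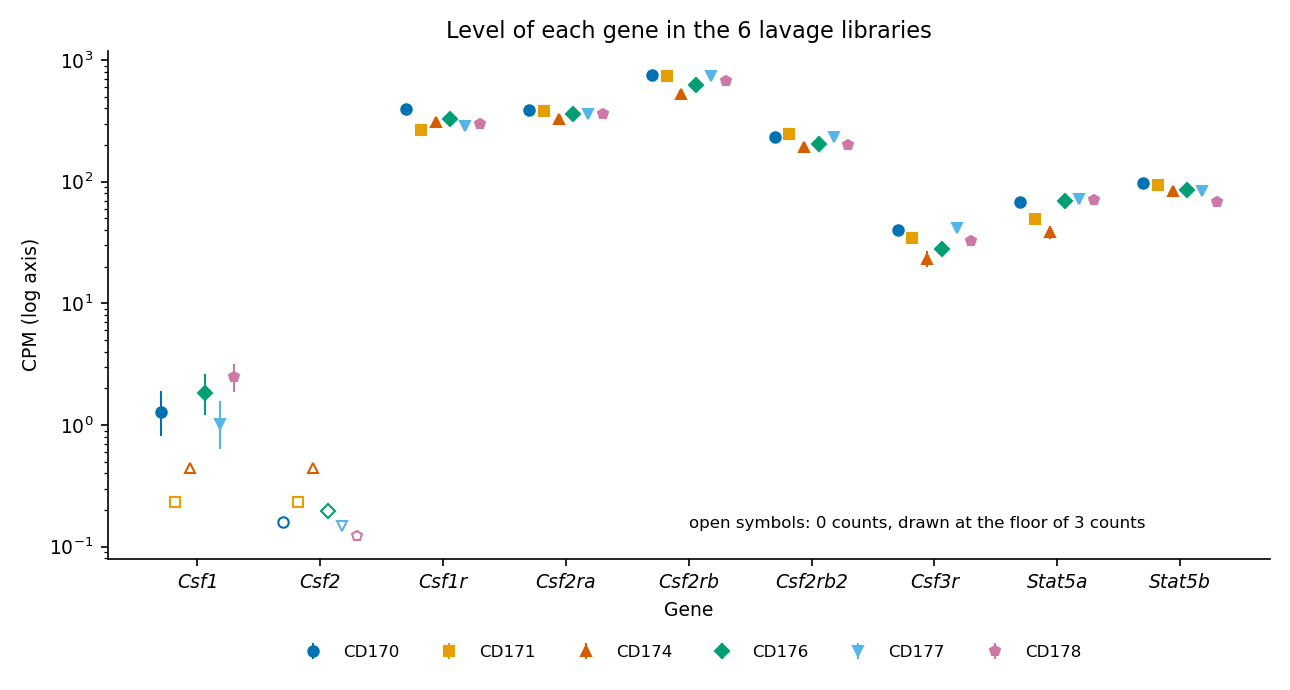
Level of the 9 genes in each library, in CPM on a log axis, with exact 95% Poisson intervals (bars; most are smaller than the symbol) and open symbols at the floor of 3 counts where a library had 0 counts. The receptor chains other than Csf3r lie between 194 and 758 CPM, while Csf1 reaches 2.46 CPM and Csf2 has 0 counts in each library.

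The ligands were low or not detected. Csf2, the gene of GM-CSF (ENSMUSG00000018916.5, chromosome 11, 54247271 to 54249667, minus strand), had 0 counts in each of the 6 libraries, and 3 counts, the floor used throughout for a count of 0, correspond to 0.123 CPM in CD178 and 0.447 CPM in CD174. Its transcript was therefore not detectable at this depth, while both chains of its receptor were among the more abundant transcripts. An annotated antisense gene that overlaps Csf2, Gm12223, also had 0 counts in each library. Markers of other cell types that can make GM-CSF were low: 13 markers of T, NK and innate lymphoid cells summed to 5.62 to 9.68 CPM, with Il7r, Il1rl1 and Cd3d the highest by median and Nkg7 and Klrb1c at 0 in each library. In the basophil and mast cell list, 6 markers summed to 1.27 to 3.20 CPM, led by Kit, with Mcpt8, Fcer1a, Ms4a2 and Prss34 at 0 in each library. The epithelial markers had counts in each library, though Krt19, whose source was not tested, gave most of their sum outside CD174. Csf2 was at 0 also in CD174, where the sum was highest. CD174 also had the highest floor and the most genes missing against prediction, so a 0 says least there.

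Csf1, the gene of M-CSF (ENSMUSG00000014599.10, chromosome 3, 107741048 to 107760469, minus strand), had 60 counts in CD178, 28 in CD176, 24 in CD170, 21 in CD177 and 0 in both CD171 and CD174. Its levels were 2.46 CPM (1.88 to 3.17) in CD178, 1.83 CPM (1.22 to 2.64) in CD176, 1.27 CPM (0.816 to 1.89) in CD170, with CD177 at 1.02 CPM (0.634 to 1.57). Among these 4 libraries the interval of CD177 lay below that of CD178, and each other pair of intervals overlapped. CD171 and CD174 lay below all 4. Set against the floor of 3 counts per library, the measured level of Csf1 in CD178 was at least 10.6-fold higher than in CD171 and at least 5.51-fold higher than in CD174; these bounds leave out the counting error of CD178. At the median level of the 4 other libraries, 20.1 counts would have been seen in CD171 and 10.4 in CD174. CD171 and CD174 are also the libraries with the most genes missing against prediction, and the part of that in the Csf1 result was not tested.

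Other ligands of these receptor families were as scarce. Csf3 (G-CSF), Il3 and Il5 had 0 counts in each library, and Il34, the other ligand of the M-CSF receptor, had at most 7 counts in any library, or 0.287 CPM in CD178.

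The GM-CSF receptor chains were the most abundant of the genes, and the alpha chain had the smallest range over the 6 libraries of those that passed the filter. Csf2ra, the ligand-binding alpha chain (ENSMUSG00000059326.6, chromosome 19, 61223957 to 61228429, minus strand), reached 389.4 CPM in CD170 and 381.4 in CD171, then 363.0 in CD177, 361.9 in CD176, 358.2 in CD178 and 330.1 in CD174. CD174 lay below the rest, and its interval (316.5 to 344.2) did not reach theirs. The highest library was 1.18 times the lowest, and without CD171 and CD174 the ratio was 1.09. On the log2 CPM scale its range over the 6 libraries was 0.24, and 1.34% of the 12627 genes that passed a filter of 10 counts in 3 libraries had a smaller range. In CD174, Csf2ra was at -0.14 relative to the median of the other libraries on the log2 scale, where the median filtered gene was at -0.10.

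Csf2rb, the common beta chain that carries the signal (ENSMUSG00000071713.4), had 757.5 CPM in CD170, 744.7 in CD177, 744.3 in CD171, 667.9 in CD178, 618.2 in CD176 and 521.2 in CD174. CD170, CD171 and CD177 were close to each other with overlapping intervals, and CD174 (504.1 to 538.7) was the lowest, followed by CD176 (605.8 to 630.7). The log2 range was 0.54, and 0.30 without CD171 and CD174.

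Csf2rb2, the interleukin 3 receptor beta chain (ENSMUSG00000071714.5), followed a similar order at a lower level, with 245.8 CPM in CD171, 233.6 in CD170, 232.7 in CD177, 205.2 in CD176, 199.3 in CD178 and 193.7 in CD174. CD170, CD171 and CD177 were high and the other 3 low, and the intervals of the 2 sets did not overlap. Csf2rb made up between 72.9% (exact 95% binomial interval 71.6 to 74.2) of the counts of the beta chain pair in CD174 and 77.0% (76.4 to 77.6) in CD178. This share does not depend on the scaling of libraries. Its interval in CD174 lay below those of the other 5 libraries. Il3ra, the alpha chain that joins Csf2rb2, went the other way in CD174, where it was highest at 25.9 CPM; CD170 was lowest at 11.5 CPM and the other 4 libraries lay at 15.2 to 17.9 CPM.

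Csf1r, the M-CSF receptor (ENSMUSG00000024621.15, chromosome 18, 61100598 to 61132149, plus strand), was at 396.9 CPM in CD170, 328.2 in CD176, 310.9 in CD174, 297.5 in CD178, 288.9 in CD177 and 267.3 in CD171. CD170 was the highest and its interval (388.0 to 406.0) overlapped none of the others; CD171 was the lowest (258.5 to 276.3), also clear of the others. Without CD170 the log2 range fell from 0.57 to 0.29. Within a library, Csf1r took 26.4% of the summed counts of Csf1r and Csf2rb in CD171, 28.0% in CD177 and 30.8% in CD178, against 34.4% in CD170, 34.7% in CD176 and 37.4% in CD174. The balance of the M-CSF receptor to the beta chain thus differed between libraries by more than counting error, and this share does not depend on the scaling either; the pair was chosen after its values were seen. Of the annotated exon bases of Csf1r, 873 of 5774 are shared with other genes, mainly Hmgxb3 on the opposite strand, which was at 8.19 to 21.4 CPM.

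**Figure D2:**
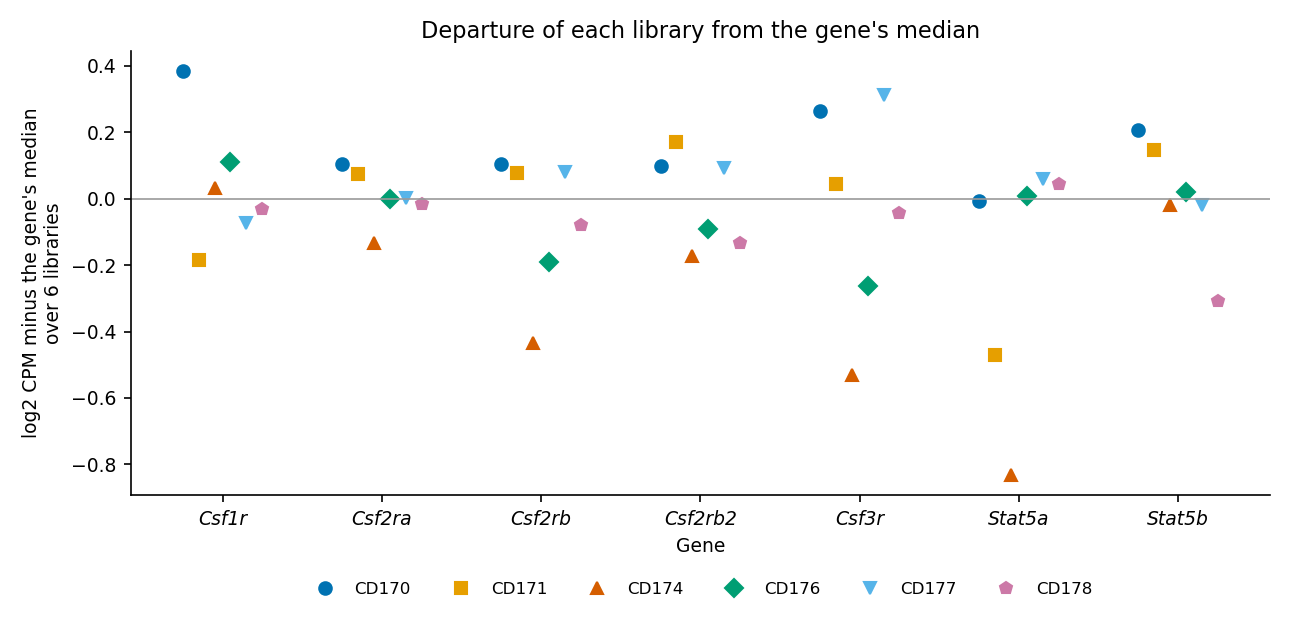
Departure of each library from the gene's median over the 6 libraries, on the log2 CPM scale, for the 7 genes with counts in each library. CD174 is lowest for Csf2ra, Csf2rb, Csf2rb2, Csf3r and Stat5a, most for Stat5a at -0.83, while CD178 is lowest for Stat5b at -0.31 and CD170 highest for Csf1r at 0.38.

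Csf3r, the G-CSF receptor (ENSMUSG00000028859.14, chromosome 4, 126024550 to 126044440, plus strand), was the lowest receptor. It had 41.8 CPM in CD177, 40.4 in CD170, 34.7 in CD171, 32.6 in CD178, 28.0 in CD176 and 23.2 in CD174, from 156 to 856 counts. CD170 and CD177 were highest with overlapping intervals, and CD174 (19.7 to 27.2) was lowest, its interval overlapping that of CD176 alone. The 11 neutrophil markers summed to 99.4 CPM in CD176, 92.7 in CD177, 89.2 in CD174, 85.4 in CD178, 74.6 in CD171 and 61.5 in CD170. CD170 was lowest in this sum and second highest in Csf3r, while CD176 was highest in the sum and second lowest in Csf3r. Ltf, Mmp8 and S100a8 gave most of the sum, at 23.2 to 50.8, 18.2 to 43.2 and 5.62 to 13.8 CPM. The order of the sum depends on the markers in it. Ltf and S100a8 were lowest in CD170 and highest in CD174. Mmp8 and Cxcr2 were highest in CD177, as was Csf3r, and lowest in CD174 and CD178, respectively. Ly6g and Elane, which mark neutrophils and their precursors, had 0 counts in each library, and S100a9 had at most 11. Which cells carried the Csf3r transcripts was not tested.

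Stat5a and Stat5b, the transcription factors downstream of the GM-CSF receptor, had different library orders. Stat5a had 71.7 CPM in CD177, 70.9 in CD178, 69.1 in CD176, 68.4 in CD170, 49.6 in CD171 and 38.6 in CD174. It was nearly level in 4 libraries, whose highest value was 1.05 times the lowest, and lower in CD171 (45.9 to 53.6) and CD174 (34.0 to 43.6). Its log2 range of 0.89 fell to 0.069 without these 2 libraries. In CD174, Stat5a was at -0.84 relative to the median of the other libraries on the log2 scale, where the median filtered gene was at -0.10; with total counts as library sizes the same figures were -1.10 and -0.35. Stat5b had 97.0 CPM in CD170, 93.2 in CD171, 85.2 in CD176, 83.1 in both CD174 and CD177, and 67.9 in CD178. Here CD178 (64.7 to 71.3) was the lowest and stood clear of the others; without it the log2 range fell from 0.51 to 0.22.

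The share of Stat5a in the summed counts of the pair was 51.1% (49.4 to 52.8) in CD178, 46.3% (44.6 to 48.1) in CD177, 44.8% (42.8 to 46.8) in CD176, 41.4% (39.6 to 43.1) in CD170, 34.8% (32.6 to 37.0) in CD171 and 31.7% (28.5 to 35.0) in CD174. CD171 and CD174 had the lowest shares, with overlapping intervals, and CD178 the highest, clear of all others. The pair was thus split differently between libraries beyond counting error, and by more than the beta chain pair, whose share ranged from 72.9 to 77.0%. Even among the 4 libraries other than CD171 and CD174, Stat5a ran from 41.4 to 51.1%. CD171 and CD174 also had the most reads assigned to no feature, and the part of this in the Stat5a level was not tested.

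**Figure D3:**
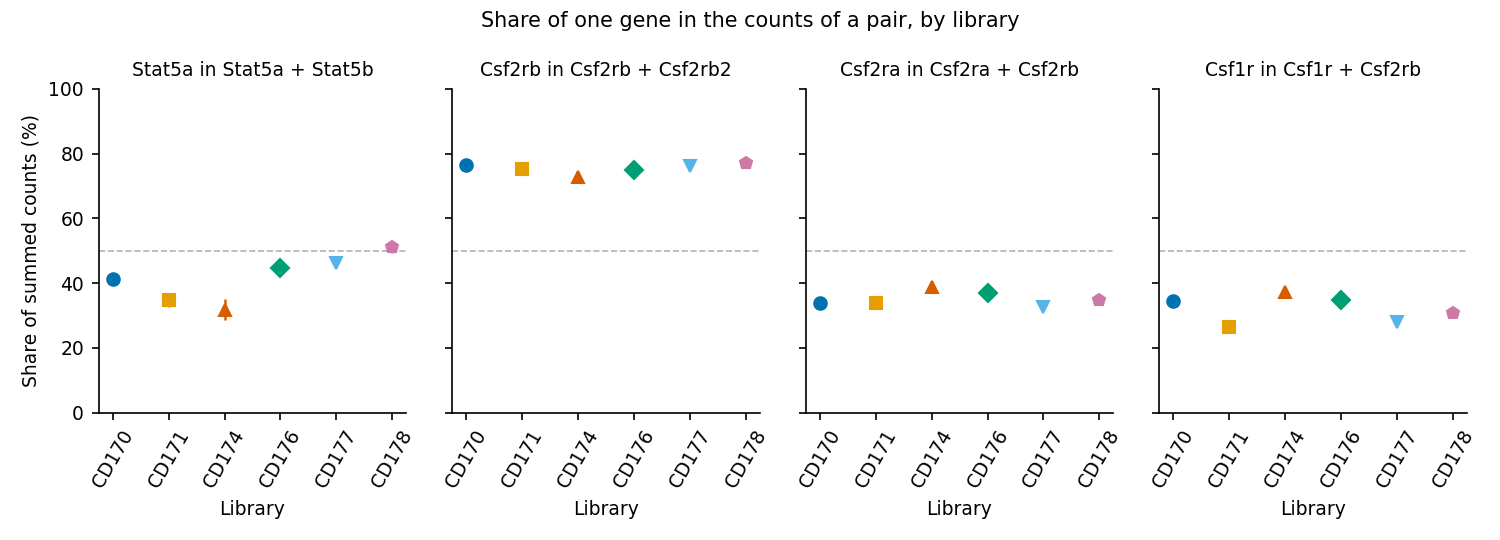
Share of one gene in the summed counts of a pair, in percent, by library, with exact 95% binomial intervals as bars and a dashed line at 50%. Stat5a ranges from 31.7% in CD174 to 51.1% in CD178, while Csf2rb stays between 72.9 and 77.0% of the beta chain pair.

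Levels of different genes can be compared only per length, here as CPM per kilobase (kb) of annotated exon. By the median over libraries the order was Csf2ra at 126.2 CPM per kb, Csf2rb at 97.0, Csf1r at 52.7, Csf2rb2 at 46.2, Stat5b at 15.2, Stat5a at 9.64, Csf3r at 9.32 and Csf1 at 0.218, with Csf2 at 0. The alpha chain exceeded the beta chain in each library, by 1.24 to 1.61 times. The size of this excess depends on the length used. By the longest transcript the medians were closer, at 159.2 CPM per kb for Csf2ra and 144.1 for Csf2rb. Csf2rb may also be counted low because of reads shared with Csf2rb2. Csf2rb exceeded Csf1r in each library, by 1.33 to 2.21 times. By annotated exon length, 2 neighbour pairs overlapped in spread. They were Csf1r (46.3 to 68.7 CPM per kb) and Csf2rb2 (40.9 to 51.9), and Stat5a (5.41 to 10.1) and Csf3r (6.44 to 11.6). Csf1r and Csf2rb2 did not overlap by the longest transcript, at 56.9 to 84.4 and 40.9 to 51.9. By exon length not shared with other genes they did not either, at 54.5 to 81.0 and 41.4 to 52.6. By that length Csf1r overlapped Csf2rb (72.2 to 105.0) instead. Csf2rb2 was 2.72 to 3.43 times Stat5b in each library, which set the 4 main receptor chains apart from the other genes. With the longest transcript as length, Stat5a (median 17.4 CPM per kb) came before Stat5b (16.1), so the order of the STAT5 pair depends on the length used.

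The library-to-library range of the genes was set against that of the whole table. Over all filtered genes, 50.5% had a log2 CPM range of at least 1, and 1 of the 8 genes that passed the filter did, namely Csf1. Csf2 did not pass. Among filtered genes with a median of at least 10 CPM the share was 28.9%, against 0 of the 7 genes at that level. Without CD171 and CD174, 16.9% of genes and 1 of 8 of these genes, again Csf1, reached it. At a threshold of 0.58 the figures were 3 of the 8 genes and 77.8% of all filtered genes, and at 2 they were 1 of 8 and 25.2%. The median range was 0.55 over the 8 genes, 1.01 over all filtered genes and 0.74 over those with a median of at least 10 CPM. The range of Csf1, 4.41, depends on the prior count because 2 libraries are at 0: it was 6.36 with a prior of 0.5 and 1.19 without CD171 and CD174. With library sizes taken as total counts, Csf3r and Stat5a also reached a range of at least 1, at 1.12 and 1.17. CD174 was the lowest or joint lowest library for 6 of the 8 genes; it was so for 39.1% of all filtered genes and for 36.1% of those with a median of at least 10 CPM. The exceptions were Csf1r, lowest in CD171, and Stat5b, lowest in CD178. The lowest library of each gene was the same with DESeq2 size factors, total counts, total counts without 4 rRNA-linked genes, or no filter. The highest library changed for Csf2rb, from CD170 to CD177, with total counts and with total counts without the 4 genes, and for Csf2ra, from CD170 to CD171, in the last of these.

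**Figure D4:**
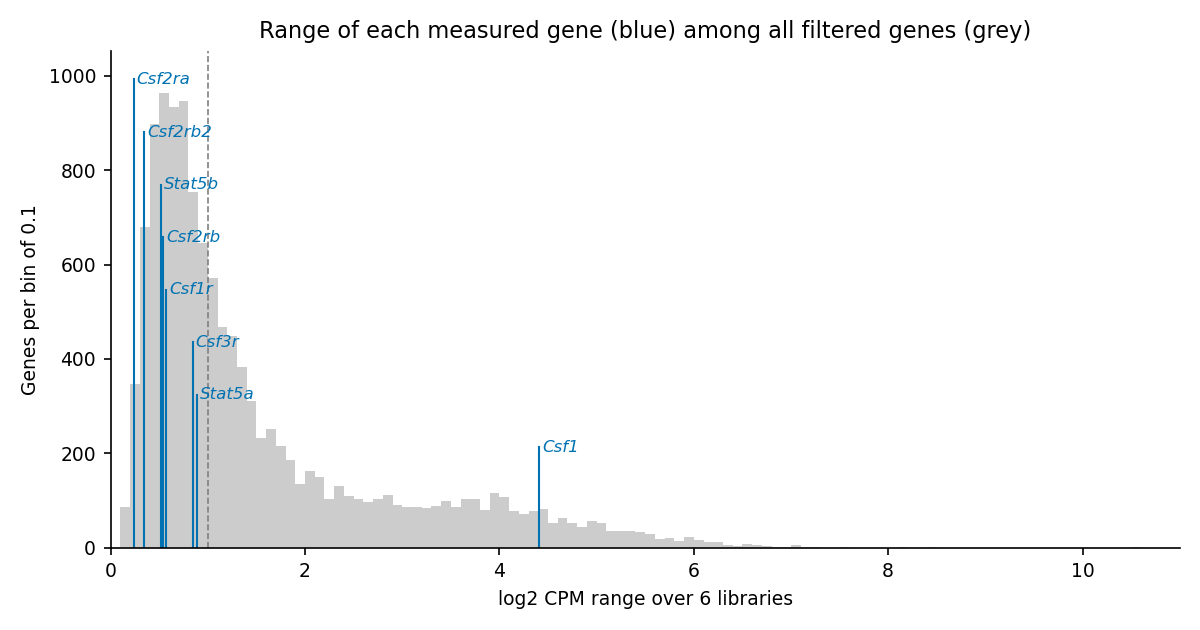
Range of log2 CPM over the 6 libraries for the 8 genes that passed the filter (blue lines, their heights staggered for the labels) on the histogram of all 12627 filtered genes (grey; genes per bin of 0.1), with a dashed line at 1. Csf2ra, at 0.24, lies near the low end, and Csf1, at 4.41 with 2 libraries at 0 counts, is the only one past 1 with this scaling (Csf3r and Stat5a also pass it with total counts).

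Among filtered genes with a median of at least 10 CPM, those whose centred log2 CPM profile over the 6 libraries was nearest to that of Csf1 were mt-Tp, a mitochondrial transfer RNA (root-mean-square difference 0.46), and Mmp12, macrophage elastase (0.67), where the spread of Csf1 about its own mean was 1.83. Both were low in CD171 and CD174: Mmp12 was at 1.70 and 2.08 CPM there, 6.21 in CD170, 20.6 in CD176, 14.6 in CD177 and 18.6 in CD178. The other genes had a range under 1 and were not matched in this way.

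Other genes of the pathway were read from a fixed list of 47, of which 42 passed the filter and 11, or 26.2%, had a log2 range of at least 1, against 50.5% of all filtered genes and 28.9% of those with a median of at least 10 CPM. Without CD171 and CD174, 2 did, where 16.9% of all genes did. The 16 kinases and adaptors next to the receptors all passed, and 1 of them, or 6.25%, reached a range of at least 1, beside the same 50.5 and 28.9%. Tyrobp, the adaptor DAP12, was at 642.4 CPM in CD171 and up to 1052 CPM in CD178, and Lyn, a Src-family kinase, between 376.7 and 472.8 CPM. Jak2, the kinase bound to the common beta chain, lay between 46.5 and 56.8 CPM with a range of 0.29. Sos1, a Ras exchange factor, had the largest range, at 14.9 CPM in CD174 and 25.6 to 34.6 CPM in the others.

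Of the negative regulators 4 of 10, and of the STAT5 targets 4 of 8, had a range of at least 1, beside 50.5% of all filtered genes. Both lists hold Cish and Socs2. Cish is a feedback inhibitor that STAT5 induces. Cish was at 24.8 CPM in CD176, 22.2 in CD177, 17.4 in CD178, 15.6 in CD170, 15.2 in CD171 and 6.55 in CD174. CD174, the library with the lowest Stat5a, was the lowest for 3 of the 8 STAT5 targets, namely Cish, Pim2 and Ccnd3, beside 39.1% of all filtered genes, and the highest for Bcl2l1, a survival factor, at 83.7 CPM. Socs2, another STAT5-induced inhibitor, ranged from 33.5 CPM in CD171 to 64.5 in CD170 with a range of 0.94. The abundant inhibitory phosphatases Ptpn6 (253.0 to 368.4 CPM) and Inpp5d (156.1 to 216.4 CPM) had ranges of 0.54 and 0.47. Pim1, a survival kinase, was highest in CD176 at 202.4 CPM, then in CD170 at 140.5, and the other 4 libraries held 85.1 to 109.7 CPM. Osm, oncostatin M, was named after its values were seen: it reached 140.5 CPM in CD176 against 18.7 to 49.1 CPM elsewhere. In CD176 none of the receptor chains or STAT5 genes was highest. Pim2 was at 7.56 CPM in CD171, 0 in CD174 and 1.90 to 2.55 CPM in the others, and Ccnd2, a cyclin, lay between 176.2 and 247.9 CPM.

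Of the other STATs, Stat6 (187.2 to 284.9 CPM) and Stat3 (195.5 to 264.6 CPM) had ranges of 0.61 and 0.44 on the log2 scale; Stat4 had at most 25 counts in any library. Among the transcription factors that depend on GM-CSF in alveolar macrophages, Spi1 (PU.1) lay between 536.7 and 782.7 CPM and Pparg between 179.1 and 250.2 CPM, with ranges of 0.54 and 0.48. Bhlhe40 had a range of 1.17, from 186.4 CPM in CD174 to 418.9 CPM in CD170.

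**Figure D5:**
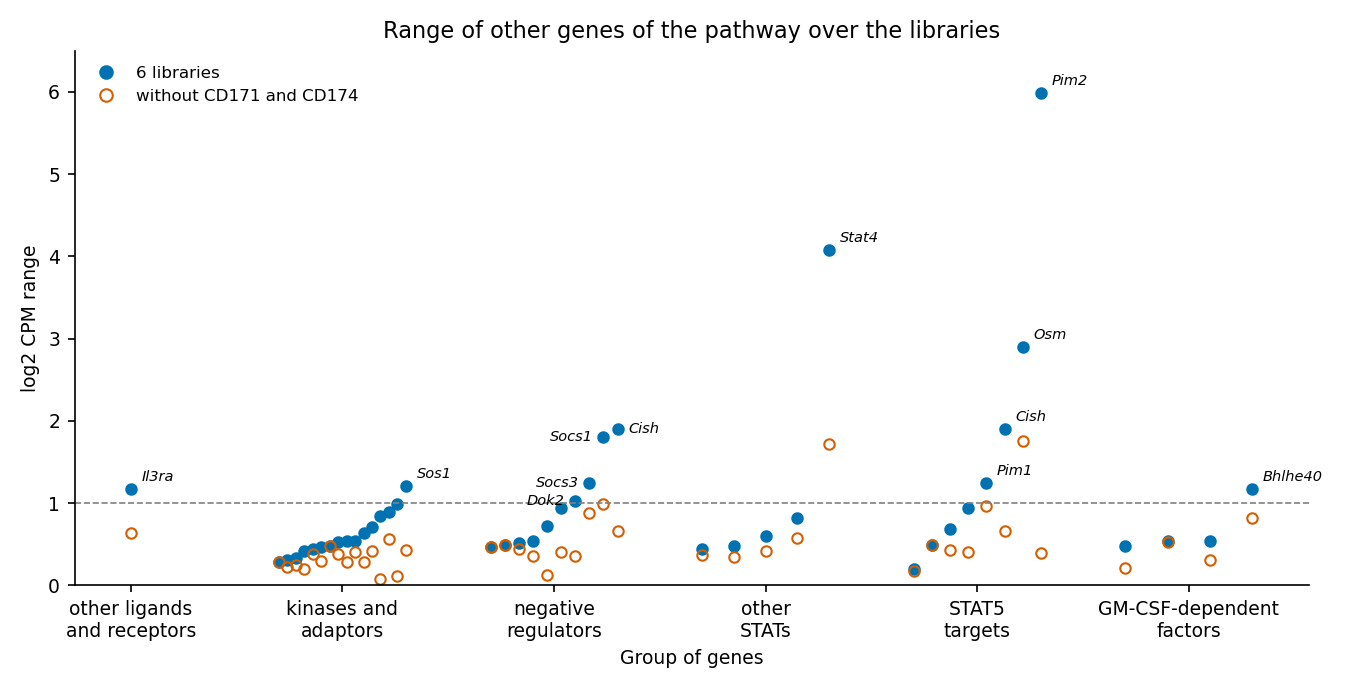
Range of log2 CPM over the 6 libraries (filled) and without CD171 and CD174 (open) for the filtered genes of the pathway list, by group; Cish appears in both lists that hold it, and names are given for genes at 1 or above. Most kinases and adaptors lie under 1, and without CD171 and CD174 only Stat4 and Osm stay at or above 1.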

How the data were processed

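RNA from 6 lavage libraries was measured as raw read counts per gene. These counts are whole numbers that the authors deposited without normalization. HTSeq 0.11.2, STAR 2.7.1a, Trim Galore 0.6.2 and bcl2fastq 2.18.0.12, and the build GRCm38, are named in the submitters' processing notes. No annotation release, strand setting or read length is given in the sources used here. It is therefore not known how reads of genes that overlap on opposite strands were counted. A summary row of ambiguous reads, given to no gene, held 5.48% of all counts in CD177 to 9.99% in CD174. The 5 summary rows, 18.8 to 46.0% of all counts, stayed out of library sizes.

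Symbols, coordinates and exon lengths came from GENCODE M21, matched without the ID version (48435 of 48795 IDs). Csf1r, Csf2ra, Csf2rb and Csf2rb2 carried older versions than M21, so their exons may differ from those counted. Coding sequences came from its principal transcripts, aligned with Biopython 1.88.

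CPM were computed here, with TMM scaling in edgeR 4.0.16 (R 4.3.3) over the 12627 genes that had 10 or more counts in 3 or more libraries. Log2 CPM used a prior count of 2. Python 3.11.15 was used with matplotlib 3.10.9, scipy 1.17.1, pandas 2.3.3 and numpy 2.4.6, and ranges were checked on simulated counts. Alternatives used DESeq2 1.42.0 size factors, total counts with and without 4 rRNA-linked genes (Lars2, Gm26917, CT010467.1, Gm23935), no filter, a prior of 0.5, other thresholds and lengths, and leaving out libraries.

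The genes and lists were chosen with earlier results of these data known. Named genes are the 9 above and, by rule, the 2 most abundant and the most variable of each pathway group, the 3 most abundant of each marker list and, for a gene with a range of at least 1, the 2 genes nearest in profile. Other names were chosen after values were seen. The eosinophil, recruited monocyte, and endothelium and mesenchyme markers summed to at most 8.58, 32.6 and 89.1 CPM; their most abundant genes were Ear6, Prg2 and Ccr3, then Ccr2, Vcan and F13a1, then Vwf, Col3a1 and Col1a2.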

Additional observations from a re-analysis of the deposited data

Results flagged for a closer look

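A value stood apart when the gap between the highest or lowest library and the next, divided by the range over the 6 libraries exceeded Dixon's critical ratio for 6 values. Chance marks about 1 in 20 groups. Of 36 values examined, 3 did so, and none of them was a level of the 9 genes or a share within a pair (12 values). The 36 did not include each gene named above, and Osm was not among them. The lung epithelium markers summed to 5300 CPM in CD174. The recruited monocyte markers summed to 32.6 CPM in CD174. Pim2 was at 7.56 CPM in CD171.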

How the results depend on the processing

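The ranges and counts were recomputed under each scaling, filter and left-out library, and the shares per kilobase and without each library. Of these values 117 stayed within 1 SD or, for counts, 1.5 times of the value reported, and 21 did not. With total counts the log2 range was 0.46 for Csf2ra, 0.79 for Csf2rb and 0.55 for Csf2rb2, and 3 of the 8 genes reached 1; with total counts without the 4 rRNA-linked genes, 2 did. Without CD171 and CD174 the range was 1.19 for Csf1, 0.12 for Csf2ra, 0.30 for Csf2rb and 0.069 for Stat5a. In that setting the ranges that stayed within 1 SD were 0.46 for Csf1r, 0.23 for Csf2rb2, 0.58 for Csf3r and 0.51 for Stat5b. Of all genes, 2065 of 12238 reached 1 there, against 6376 of 12627. With no filter 13820 genes did. At a threshold of 0.58 the counts were 3 of the 8 genes and 9828 of all, and at 2 they were 1 and 3176. Per kilobase, the median share of Csf2rb in its pair was 67.0% (75.7% by counts), and that of Stat5a 37.0% (43.1% by counts). With the longest transcript as length, Stat5a and Stat5b exchanged places 5 and 6 in the order of levels.

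Leaving out each library in turn, the range lay between 3.87 and 4.56 for Csf1, 0.29 and 0.57 for Csf1r, 0.12 and 0.23 for Csf2ra, 0.30 and 0.53 for Csf2rb, 0.27 and 0.34 for Csf2rb2, 0.58 and 0.84 for Csf3r, 0.52 and 0.89 for Stat5a, and 0.22 and 0.52 for Stat5b. The lowest values came without CD174 for Csf2ra, Csf2rb and Stat5a, without CD170 for Csf1r and without CD178 for Stat5b. The count of all genes lay between 3863, without CD174, and 5820, and that of the 8 genes was 1 each time. Median shares lay between 41.4 and 44.8% for Stat5a and between 75.2 and 76.2% for Csf2rb. The cause of these shifts was not tested. In CD174 the scaling moved the median gene to -0.06 with DESeq2 size factors and -0.14 without a filter. The median gene was at -0.20 with total counts without the 4 genes and at -0.35 with total counts. Csf1r in CD174, at 0.06 relative to the other libraries, was at 0.098 with DESeq2 size factors and 0.008 without a filter. It changed sign with total counts, to -0.19, and with total counts without the 4 genes, to -0.03. No paired analysis was possible because the libraries could not be grouped. Depth limits Csf1 and Csf2: in CD174 a level under 0.447 CPM gives fewer than 3 counts.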
